A study of Mus musculus with 10 samples.

Results

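The genes described here are the 3 fibrinogen chains and 7 genes that start, restrain or dissolve the fibrin clot, 10 of the 18193 genes with a value in renal cortex from FVB/N mice aged 20 weeks. They are Fga, Fgb and Fgg, the tissue factor gene F3, the anticoagulant genes Thbd, Procr and Tfpi, and Plau, Plat and Plaur of the plasminogen activator system. They were chosen by symbol, and each was read from the probe set with the largest 10-array average. All mice had partial kidney ablation and removal of a kidney; drugs began 6 weeks after the ablation, 4 weeks after the uninephrectomy, and were given for 6 weeks. Aliskiren, a renin inhibitor, was given to 5 mice at 50 mg/kg per day, and losartan, a blocker of the type 1 angiotensin II receptor, to 5 mice at 500 mg/l. Mice without a drug were not analysed here, so each comparison is of aliskiren with losartan.

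Fibrinogen is a plasma protein made of pairs of alpha, beta and gamma chains, and thrombin turns it into fibrin. The liver is its main source, but injured kidney epithelium is also known to transcribe the chains, and the 3 genes lie side by side in mammalian genomes. Tissue factor starts coagulation; thrombomodulin, the endothelial protein C receptor and tissue factor pathway inhibitor restrain it; urokinase and tissue plasminogen activator convert plasminogen to plasmin, which cuts fibrin.

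Values are RMA log2 expression as deposited by the authors, so a difference of 1 is a 2-fold difference, and levels of different genes cannot be compared. In these bulk samples, fewer cells of a type and less RNA per cell cannot be told apart. Proximal tubule markers, 10 of 10 with values, had a mean level of 12.38 to 12.67 in aliskiren mice and 12.27 to 12.79 in losartan mice. Losartan mouse 3 stood apart: it had the highest value of 29.2% of the 11486 genes tested, the highest of all 8 perirenal fat markers and of all 10 markers of injured tubules, and the lowest of 6 of the 10 proximal tubule markers. Drug differences that turn or move by over 1.5 times without it are given both ways for the members and the named pathway genes.

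The promoter windows of the 3 fibrinogen genes are shown because the chains moved together across mice. Sequences are RefSeq's for GRCm38.p6, from 250 bases before to 50 bases after the annotated start; a window was found for 7 of the 10 members. Fgg, Fga and Fgb lie in this order on chromosome 3, and the only other annotated gene between the outer 2 is Gm40075, a long noncoding RNA gene between Fga and Fgb. The windows are chr3:83007474-83007773 on the plus strand for Fgg, chr3:83025903-83026202 on the plus strand for Fga and chr3:83049814-83050113 on the minus strand for Fgb. Capitals mark matches, on either strand, to TTCNNNGAA (the STAT palindrome), GTTAAT (only part of an HNF1 site) and CTGGGAA (an IL-6 response element).
Fga: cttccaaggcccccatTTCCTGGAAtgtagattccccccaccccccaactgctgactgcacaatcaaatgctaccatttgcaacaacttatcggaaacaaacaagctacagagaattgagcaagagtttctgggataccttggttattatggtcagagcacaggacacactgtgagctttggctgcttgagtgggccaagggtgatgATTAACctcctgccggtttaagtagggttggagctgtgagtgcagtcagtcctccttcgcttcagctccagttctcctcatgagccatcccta
Fgb: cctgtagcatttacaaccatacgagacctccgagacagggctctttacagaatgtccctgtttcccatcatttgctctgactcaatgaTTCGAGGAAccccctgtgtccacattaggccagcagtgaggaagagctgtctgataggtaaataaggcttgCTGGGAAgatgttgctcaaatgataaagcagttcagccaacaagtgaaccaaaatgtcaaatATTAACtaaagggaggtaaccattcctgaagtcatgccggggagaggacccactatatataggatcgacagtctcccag
Fgg: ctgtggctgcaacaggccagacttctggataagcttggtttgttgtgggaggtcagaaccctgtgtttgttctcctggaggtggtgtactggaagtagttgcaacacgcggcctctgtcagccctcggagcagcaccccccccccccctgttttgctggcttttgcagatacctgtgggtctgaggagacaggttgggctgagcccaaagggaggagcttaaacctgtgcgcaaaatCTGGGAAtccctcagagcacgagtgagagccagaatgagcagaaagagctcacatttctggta

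The STAT palindrome was found once in the Fga window (bases 17 to 25) and once in the Fgb window (bases 89 to 97), and it is present in 8.3% of the 32851 promoter windows of the genome. GTTAAT, only part of an HNF1 site, was found once in each of the same windows, at bases 208 to 213 and 222 to 227, against 7.1% of all windows. The IL-6 response element stood at bases 160 to 166 of Fgb and 238 to 244 of Fgg, and 11.1% of all windows hold it. It was also found outside the chains, in a Tfpi window at bases 175 to 181. A looser C/EBP pattern, TTNCNNAA, matched 1 time in Fga and 3 times in Fgb, without capitals here, and 40.7% of all windows hold it. The windows of Procr and Plaur held it as well. No motif of the 4 was common to the windows of all 3 chains. A match is a description of these letters and not a binding site.

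The fibrinogen chains had lower means with aliskiren, but the drugs' mice overlapped, and the 3 differences were small beside the spread between mice. Fga, the alpha chain, had 9.49, 9.24, 8.31, 8.48 and 9.14 in aliskiren mice 1 to 5 and 8.91, 9.75, 11.11, 9.25 and 8.04 in losartan mice 1 to 5. The means were 8.93 ± 0.51 with aliskiren and 9.41 ± 1.14 with losartan (SD, n = 5 each), a difference of -0.48 (SE 0.49). The lowest and the highest of all 10 values both belonged to losartan mice, number 5 and number 3.

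Fgb, the beta chain, had 5.53, 6.01, 4.48, 3.93 and 5.16 with aliskiren and 5.42, 5.77, 8.22, 4.58 and 4.57 with losartan. Its mean over 10 mice lay below the level filter of 5.53, the median of all probe sets, so it was not among the genes tested. The means were 5.02 ± 0.83 with aliskiren and 5.71 ± 1.5 with losartan. The difference from a fit without that filter was -0.69 (SE 0.66), and losartan mouse 3 lay 2.21 above the next mouse.

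Fgg, the gamma chain, had 9.53, 9.55, 7.88, 7.99 and 9.16 with aliskiren and 8.545, 9.83, 11.53, 8.39 and 7.63 with losartan. The means were 8.82 ± 0.83 with aliskiren and 9.18 ± 1.53 with losartan, a difference of -0.36 (SE 0.68). Aliskiren mice 1, 2 and 5 lay above 9, mice 3 and 4 below 8, and losartan mice ran from the lowest to the highest value of all. Between the mice at the ends of the range Fgg differed 14.9-fold and Fga 8.4-fold, and over the 9 mice without losartan mouse 3 it was 4.61-fold for Fgg and 3.28-fold for Fga. Fgb spanned 4.30 on the log2 scale, or 2.09 without that mouse; its low end lies below the level filter, so no fold is given.

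**Figure D1:**
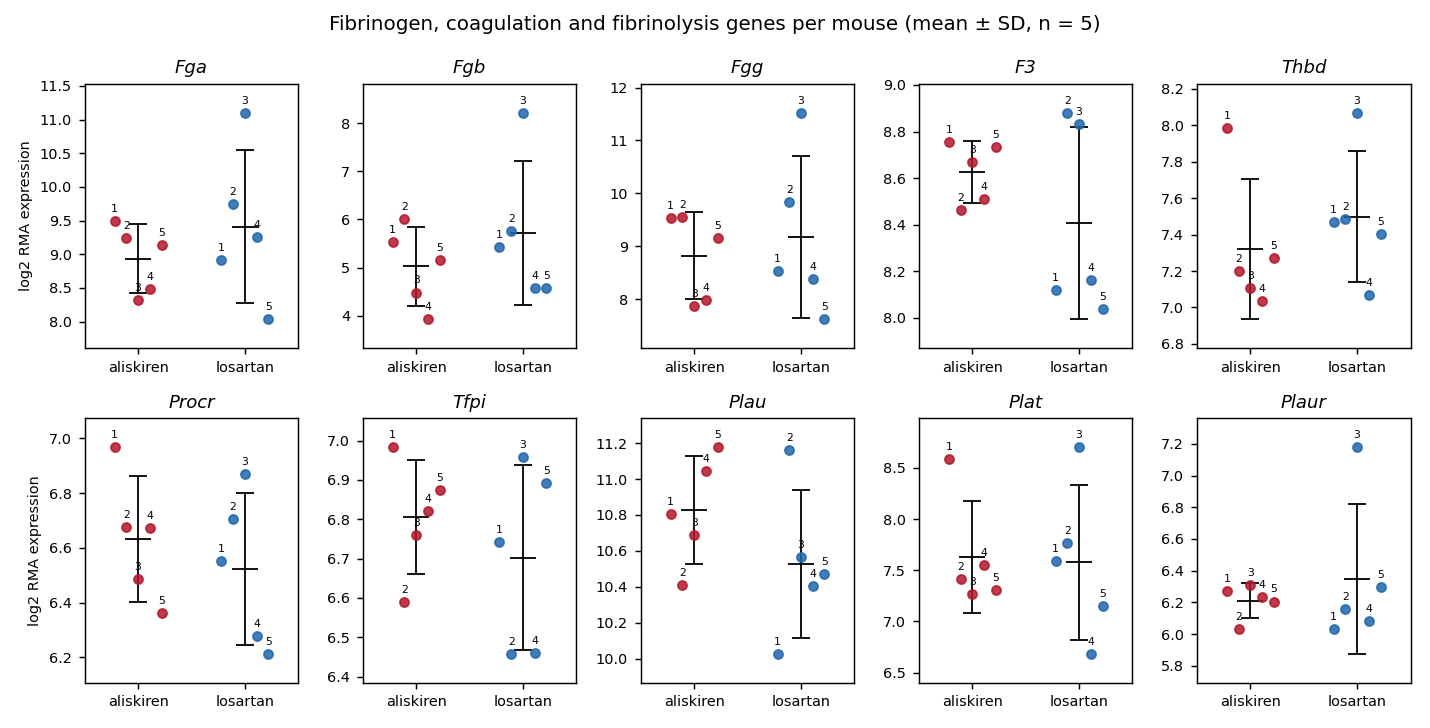
Log2 RMA expression of the 10 members in each mouse (points, numbered by mouse), with mean and SD over 5 mice per drug, aliskiren left and losartan right; the vertical scale differs between panels. The 3 fibrinogen chains peak in losartan mouse 3, at 11.11, 8.22 and 11.53, and the drugs' points overlap in every panel.

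Without losartan mouse 3 the drug differences of the chains were close to 0 or turned. They were -0.05 for Fga and -0.06 for Fgb, and Fgg turned to 0.23. The 95% intervals with all mice ran from -1.56 to 0.61 for Fga, from -2.15 to 0.77 for Fgb and from -1.88 to 1.16 for Fgg. All 3 leave room for values over 2-fold lower with aliskiren, and that of Fgg also for values over 2-fold higher.

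F3, which encodes tissue factor, had 8.76, 8.46, 8.67, 8.51 and 8.74 in aliskiren mice and 8.12, 8.88, 8.83, 8.16 and 8.04 in losartan mice. All 5 aliskiren mice lay above the losartan mean, while the losartan mice fell into 2 at the top of the whole range and 3 below every aliskiren mouse. The means were 8.63 ± 0.13 with aliskiren and 8.41 ± 0.41 with losartan, a difference of 0.22 (SE 0.17), or 0.32 without losartan mouse 3.

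Among the anticoagulants, Thbd, the gene of thrombomodulin, which redirects thrombin to activate protein C, had 7.99, 7.20, 7.11, 7.03 and 7.27 with aliskiren and 7.47, 7.48, 8.07, 7.07 and 7.40 with losartan. Aliskiren mouse 1 and losartan mouse 3 were the highest of their groups, and the difference was -0.18 (SE 0.21), or -0.04 without losartan mouse 3. Procr, the endothelial protein C receptor gene, had 6.97, 6.68, 6.49, 6.67 and 6.36 with aliskiren and 6.55, 6.70, 6.87, 6.28 and 6.21 with losartan. Its difference was 0.11 (SE 0.15), or 0.20 without losartan mouse 3.

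Tfpi, whose product inhibits the tissue factor complex, had on its chosen probe set the narrowest range of the members, 6.59 to 6.98 with aliskiren and 6.46 to 6.96 with losartan. Its difference was 0.10 (SE 0.12), or 0.17 without losartan mouse 3. Its 4 probe sets did not run together: the other 3 were highest in losartan mouse 3, with ranges over the 10 mice of 1.39, 2.04 and 1.19 against 0.53 for the chosen one, and their differences were 0.06, -0.27 and -0.07. Averaged over the 4, Tfpi turned to -0.04, so its direction depends on the probe set.

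Plau, the urokinase gene, had, with all mice, the largest difference among the members with a higher mean under aliskiren. Its values were 10.81, 10.41, 10.69, 11.05 and 11.18 with aliskiren and 10.03, 11.16, 10.57, 10.40 and 10.47 with losartan, and 4 of 5 aliskiren mice lay above the losartan mean. The means were 10.83 ± 0.30 with aliskiren and 10.53 ± 0.41 with losartan, a difference of 0.30 (SE 0.20) that was 0.46 without losartan mouse 2 and 0.17 without losartan mouse 1. A separate probe set of Plau differed by 0.38.

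Plat, the gene of tissue plasminogen activator, had 8.58, 7.41, 7.27, 7.55 and 7.31 with aliskiren and 7.59, 7.77, 8.70, 6.68 and 7.15 with losartan. Aliskiren mouse 1 and losartan mouse 3 had nearly the same level, and the other 8 mice lay at 7.77 or below. The difference was 0.05 (SE 0.37); it was 0.33 without losartan mouse 3 and turned to -0.19 without aliskiren mouse 1. The second probe set of Plat stayed between 4.80 and 5.17, and its highest value was in aliskiren mouse 2.

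Plaur, the urokinase receptor gene, had 6.27, 6.03, 6.31, 6.24 and 6.21 with aliskiren and 6.03, 6.155, 7.18, 6.08 and 6.29 with losartan. Apart from losartan mouse 3 the 9 mice lay within 6.03 to 6.31. The difference of -0.14 (SE 0.20) turned to 0.07 without that mouse.

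Of the 9 members tested, 0 passed limma's threshold of an adjusted p of 0.05 in either direction, as did 0% of the 11486 genes in each direction. At an unadjusted p under 0.05 there were 0 members and 542 genes (4.72%). The adjusted p of the 9 members ran from 0.948 to 0.995, and 5 of the 10 members had a lower mean with aliskiren, against 53.8% of the genes tested. No member had drug groups free of overlap, against 0.914% of genes. The 95% interval lay within 1.5-fold in both directions for Procr, Tfpi and Plaur, 3 of 9 members, against 87.7% of all genes tested. For the other 6 a difference of 1.5-fold was not excluded by the interval.

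**Figure D2:**
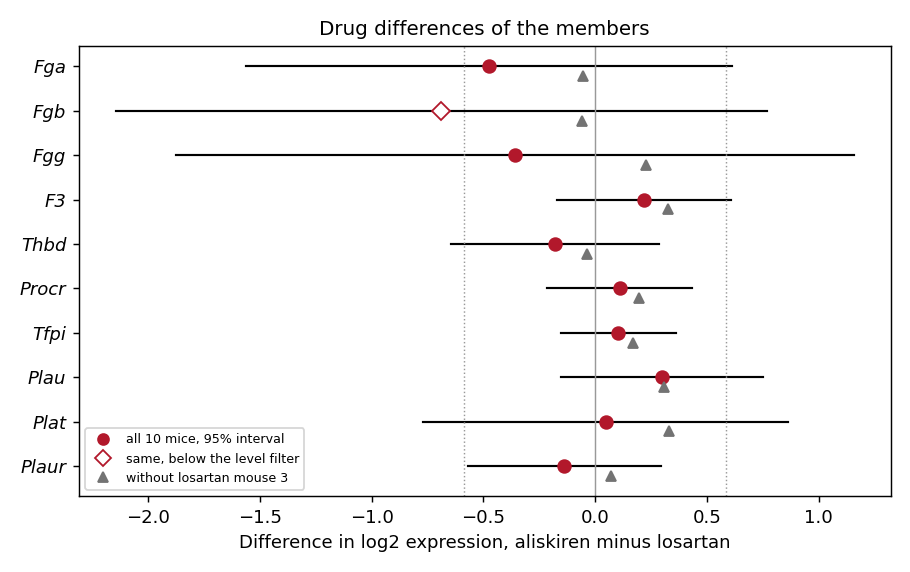
Difference in log2 expression, aliskiren minus losartan, for each member, with limma's 95% confidence interval over 10 mice; triangles give the difference without losartan mouse 3 and dotted lines mark 1.5-fold. Every interval crosses 0, and Fgg and Plaur change sign without losartan mouse 3, to 0.23 and 0.07.

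Of the 9 members tested, all 9 had a pooled SD between mice of a drug above the median of all genes, and 8 did without losartan mouse 3. The pooled SD within a drug was 1.23 for Fgg, above that of 99.6% of the genes tested, 0.88 for Fga (98.8%) and 0.66 for Plat (97.2%). Thbd, Plau, Plaur, F3 and Procr lay between 0.25 and 0.37, at percentiles from 80.9 to 90.1, and Tfpi was at 0.20, percentile 69.6. The median over all genes was 0.14. Fgb, not ranked because of its level, had a pooled SD of 1.21. Without losartan mouse 3 the pooled SD was 0.86 for Fgg (percentile 99.5), 0.61 for Fga (98.5), 0.52 for Plat (97.7) and 0.74 for Fgb, and the median over all genes was 0.12. Thbd, Plau, F3 and Procr then lay at percentiles from 84.6 to 94.9 and Tfpi at 74.6. Plaur fell below the median, at 0.11 (percentile 41.1), so its place in the upper part rests on losartan mouse 3.

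**Figure D3:**
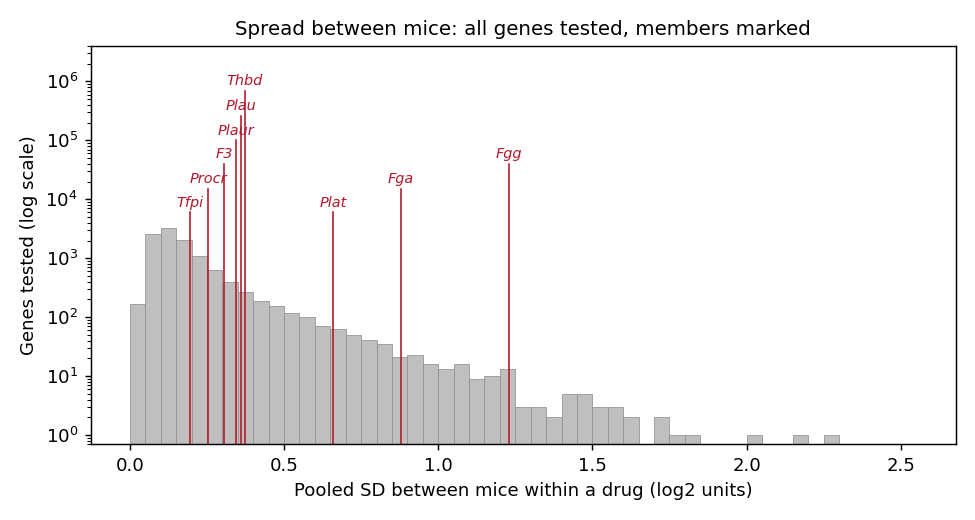
Histogram of the pooled SD between mice within a drug for the 11486 genes tested (log2 units, counts on a log axis), with the 9 tested members marked by lines whose heights only separate the labels. All 9 lie above the median of 0.14, from Tfpi at 0.20 to Fgg at 1.23; without losartan mouse 3 Plaur, at 0.11, does not.

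The highest value was in losartan mouse 3 for 6 of 10 members, Fga, Fgb, Fgg, Thbd, Plat and Plaur, against 29.2% of all genes tested. For F3, Procr and Tfpi that mouse was the next highest, and for Plau it was near the middle. Aliskiren mouse 1 was among the 2 highest for 4 members, Thbd, Procr, Tfpi and Plat. Losartan mouse 5 was the lowest for Fga, Fgg, F3 and Procr.

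These positions were set beside Havcr1, whose product KIM-1 appears on injured proximal tubule cells. Havcr1 had 9.37, 8.53, 6.08, 6.57 and 7.82 in aliskiren mice and 7.23, 8.69, 10.76, 6.22 and 5.41 in losartan mice. Losartan mouse 5 was lowest and losartan mouse 3 highest for Havcr1, as for Fga and Fgg. In all, 13 relations were computed, the 3 pairs of chains and each member with Havcr1. Where a gap over 40% of the range set mice apart, which held for losartan mouse 3 in all 3 chains, no pooled correlation was computed and the other mice were used.

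Over the other 9 mice Fgg followed Havcr1, with Pearson r = 0.95 (exact permutation p = 0.0003, adjusted over 13 relations 0.00344) and Spearman rho = 0.93 (exact permutation p = 0.00075, adjusted 0.00879). The r was 0.96 without the 2 mice of most extreme Havcr1, and 0.96 for deviations from the drug means. No member had a larger r with Havcr1, but F3, Procr, Tfpi and Plau were read over 10 mice and Thbd and Plat over 8. Of 11485 tested genes, 5 (0.0435%), Fgg included, had an r of at least this size, in either direction, over the same mice. Fga had r = 0.84 (exact permutation p = 0.00599, adjusted 0.0156) and rho = 0.82 (p = 0.0108, adjusted 0.028), with 0.74 over the 7 inner mice and 0.90 for deviations. Fgb had r = 0.81 (exact permutation p = 0.0109, adjusted 0.0236) and rho = 0.80 (p = 0.0138, adjusted 0.03), with 0.87 over the 7 inner mice and 0.87 for deviations. Most of the Fgb values used lay below the level filter of 5.53, which limits its relations. Correlations at least as large, in either direction, were held by 276 genes (2.4%) for Fga and 409 genes (3.56%) for Fgb.

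**Figure D4:**
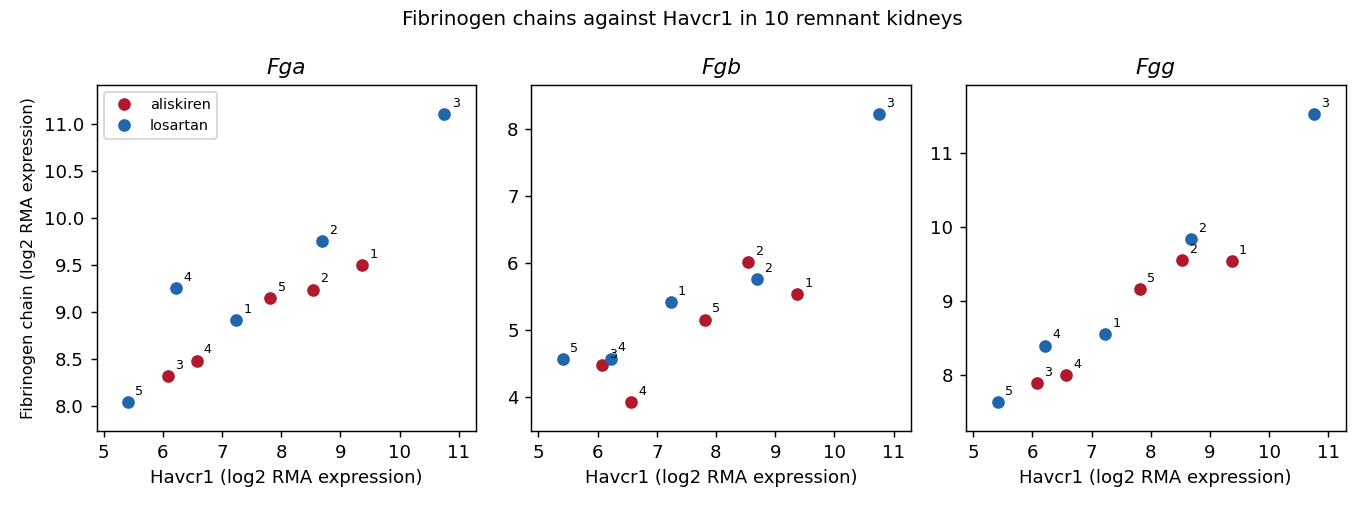
Log2 expression of Fga, Fgb and Fgg against that of Havcr1 in the 10 mice, numbered by mouse and coloured by drug. Losartan mouse 3 lies at the upper right in each panel, at a Havcr1 of 10.76, and over the other 9 mice r is 0.84, 0.81 and 0.95 for the 3 chains.

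The chains also followed each other over these 9 mice. Fga and Fgg had r = 0.92 (exact permutation p = 0.000529, adjusted 0.00344) and rho = 0.87 (p = 0.00451, adjusted 0.0147), with 0.85 over 7 mice and 0.94 for deviations from the drug means. Fgb and Fgg had r = 0.87 (exact permutation p = 0.00495, adjusted 0.0156) and rho = 0.90 (p = 0.00203, adjusted 0.00879), with 0.89 over 7 mice and 0.89 for deviations. Fga and Fgb had r = 0.73 (exact permutation p = 0.031, adjusted 0.0504) and rho = 0.73 (p = 0.0311, adjusted 0.0506), which missed the threshold after adjustment, with 0.71 over 7 mice and 0.73 for deviations. The low level of Fgb limits both pairs that hold it.

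Among the other members Procr followed Havcr1 over all 10 mice, with r = 0.82 (permutation p = 0.00434, adjusted 0.0156) and rho = 0.88 (p = 0.00165, adjusted 0.00879), 0.71 over the 8 inner mice and 0.84 for deviations. An r of at least this size, in either direction, was held by 8.3% of genes. F3 had r = 0.69 (permutation p = 0.0284, adjusted 0.0504) and rho = 0.75 (p = 0.0178, adjusted 0.0331), and its r was 0.51 over the 8 inner mice, so the linear relation missed the threshold and the rank relation passed. As large an r as that of F3, in either direction, was held by 21.6% of genes. Plat over 8 mice had r = 0.59 (exact permutation p = 0.114, adjusted 0.165) and rho = 0.74 (p = 0.0458, adjusted 0.0662), with r = 0.43 over the 6 inner mice. Thbd (r = 0.34 over 8 mice), Tfpi (0.22 over 10), Plau (0.17 over 10) and Plaur (-0.27 over 9) did not pass, with permutation p from 0.398 to 0.643 and adjusted p from 0.517 to 0.643. Their rho were 0.40, 0.20, 0.27 and -0.40, with adjusted permutation p from 0.379 to 0.584, and their r over the inner mice 0.16, 0.17, 0.24 and -0.42. The share of genes with as large an r was 14.3% for Plat and from 43.6% to 83.4% for Thbd, Tfpi, Plau and Plaur. For Thbd and Plat the mice left out were aliskiren mouse 1 and losartan mouse 3, the 2 highest for both genes and for Havcr1. Procr and F3 kept both mice, so these r cover unlike ranges of Havcr1 and cannot be set side by side. Whether these relations differ between the members was not tested.

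Markers of other cell types also differed between mice. Liver markers, 9 of 10 with values, had a mean level over the 3 tested of 6.95 to 7.18 in aliskiren mice and 6.59 to 7.17 in losartan mice, and 6 of the 9 lay below the level filter. Losartan mouse 3, highest for the fibrinogen chains, had the lowest liver mean. It was the lowest mouse for 5 of the 9 liver markers, among them the albumin gene Alb at 5.74, and the highest for 2, Apoc3 at 7.83 and Ambp at 5.80. Platelet markers (6 of 6 with values, 3 tested) had means of 6.57 to 6.84 with aliskiren and 6.51 to 7.01 with losartan, and the highest mean, in losartan mouse 3, rests on Pf4 at 8.34. That mouse was the lowest for 3 of the 6 platelet markers, Itga2b at 7.25, Gp9 at 5.45 and Ppbp at 4.01. Macrophage markers (10 of 10) had means of 6.95 to 8.08 with aliskiren and 6.41 to 8.58 with losartan, and fibroblast and matrix markers (9 of 9) 7.49 to 8.90 with aliskiren and 7.25 to 10.30 with losartan. Injured tubule markers (10 of 11 with values, 8 tested) had 7.83 to 9.37 with aliskiren and 7.48 to 10.67 with losartan. Perirenal fat markers (8 of 10 with values, 4 tested) had 7.82 to 10.35 with aliskiren and 7.80 to 12.48 with losartan, and endothelial markers (10 of 10 with values, 9 tested) 7.33 to 7.67 with aliskiren and 7.21 to 7.95 with losartan. Collecting duct markers (8 of 8) had 8.64 to 9.10 with aliskiren and 8.95 to 9.25 with losartan. A lower mean with aliskiren was held by 7 of the 8, against 53.8% of all genes tested. In limma 5 had an unadjusted p under 0.05, against 4.72% of all genes tested, and 0 passed the threshold, with a lowest adjusted p of 0.945. Podocyte markers (5 of 6 with values, 3 tested) had 7.28 to 8.10 with aliskiren and 7.03 to 8.04 with losartan, and red cell markers (3 of 5 with values, 2 tested) 6.89 to 7.55 with aliskiren and 6.46 to 7.93 with losartan. The mean levels of the macrophage, matrix, injury, fat and endothelial lists were highest in losartan mouse 3. By gene, that mouse was highest for all 9 matrix markers and for 7 of the 10 macrophage markers, and lowest for 1 macrophage marker. It was highest for only 4 of the 10 endothelial markers, against 29.2% of all genes tested, and the endothelial mean of losartan mouse 1 was close, at 7.80 against 7.95. Of the 9 endothelial markers tested 8 had a lower mean with aliskiren, against 53.8% of all genes tested. In limma 1 of them had an unadjusted p under 0.05 and 0 passed the threshold, with a lowest adjusted p of 0.945. The part of these lists in the results was not tested.

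The wider clotting pathway was read through 7 lists of 57 genes, 32 of them tested; some listed genes were not analysed here. Of the 32 tested, 0 genes were higher and 0 lower with aliskiren at limma's threshold, and 0 had an unadjusted p under 0.05, against 4.72% of all genes tested. A lower mean with aliskiren was found for 18 of the 32, against 53.8% of all genes tested. Of 18 listed genes below the level filter 1 had an unadjusted p under 0.05 in the fit without the filter, the factor X gene F10, with a limma difference of 0.28. The median difference over all genes tested was -0.01. For each list the 3 tested genes of largest spread are named where it had that many.

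Only 2 of 8 other coagulation factor genes reached the level filter. F13b, the carrier subunit of the fibrin-crosslinking factor XIII, had 11.20 ± 0.25 with aliskiren and 11.07 ± 0.72 with losartan, where losartan mouse 3 was lowest at 9.81. Its difference of 0.13 turned to -0.19 without that mouse. F8 differed by -0.08 (SE 0.11), or -0.15 without it. Of 7 tested anticoagulants 3 had a lower mean, with a list median of 0.00. Pros1, the gene of protein S, a cofactor of protein C, differed by -0.25 (SE 0.27), or -0.02 without losartan mouse 3. Anxa5, a phospholipid-binding annexin, differed by 0.00 (SE 0.25) and the antithrombin gene Serpinc1 by 0.08 (SE 0.18); without losartan mouse 3 the differences were 0.21 and 0.01. Serpinf2, which encodes the plasmin inhibitor alpha-2-antiplasmin, was the only tested gene of its list, with 11.37 to 11.73 in aliskiren mice and 10.37 to 11.67 in losartan mice. Its difference was 0.34 (SE 0.21), and 0.13 without losartan mouse 3, its lowest mouse.

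Receptors and cofactors of plasmin and fibrin had 8 of 11 genes tested, 5 of them with a lower mean and a list median of -0.05. Anxa2, part of the cell surface receptor for plasminogen and tissue plasminogen activator, had 9.14 ± 0.60 with aliskiren and 9.18 ± 0.98 with losartan. Itgb2, a subunit of leukocyte integrins, some of which bind fibrinogen, differed by -0.06 (SE 0.42), and Icam1, an adhesion molecule that also binds fibrinogen, by -0.17 (SE 0.31). Without losartan mouse 3 the differences were 0.36, 0.31 and 0.12. F2r, the thrombin receptor PAR1, was the only tested protease-activated receptor, at 9.93 ± 0.46 with aliskiren and 10.04 ± 1.03 with losartan, with losartan mouse 3 highest at 11.58. Its difference of -0.11 turned to 0.28 without that mouse.

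The IL-6 and STAT3 acute phase list, which holds the signalling genes known to raise fibrinogen transcription in liver, had 11 of 15 genes tested, 7 with a lower mean and a median of -0.10. Lcn2, an acute phase and tubular injury gene, had 7.47 ± 0.85 with aliskiren and 7.20 ± 2.09 with losartan. The ceruloplasmin gene Cp had 9.65 ± 0.77 with aliskiren and 9.50 ± 1.57 with losartan, and Socs3, a feedback inhibitor of STAT3 signalling, 6.07 ± 0.83 with aliskiren and 6.09 ± 1.18 with losartan. Their differences without losartan mouse 3 were 1.02, 0.73 and 0.41, against 0.27, 0.15 and -0.03 with all mice. Of the 11 genes 10 were highest in losartan mouse 3, as were 29.2% of all genes tested. The other gene, Il6st, was lowest in that mouse, at 9.96. Of the hepatic regulator list 2 of 5 genes were tested: Hnf4a differed by -0.01 (SE 0.08), or -0.08 without losartan mouse 3, and Nr1h4, the bile acid receptor FXR, by 0.14 (SE 0.10), with median 0.07.

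The member of largest SD over the 10 mice was Fgb. Apart from members, the tested genes with the smallest root-mean-square difference from its mean-centred profile over the 10 mice were Col5a2 (0.43), Cbr3 (0.46), Lum (0.47), S100a6 (0.49) and Asns (0.49). The fibrinogen chain Fgg lay nearer at 0.38 and Fga at 0.53, while Plau was the most distant member at 1.24. All 5 genes were highest in losartan mouse 3, and that mouse weighs most in this measure.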

How the data were processed

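Renal cortex RNA of 10 mice was hybridised to Affymetrix mouse arrays, 1 per mouse. The values deposited by the authors are log2 expression for each probe set; the submitters' processing notes name RMA and Affymetrix Expression Console 1.1. RMA equalises the arrays' distributions. Of 45101 probe sets 64 controls were left out, and 34945 had 1 gene symbol in the platform annotation, for 18193 genes. Each gene used the probe set with the largest average, and 11486 genes whose average was at least 5.53 (the median over probe sets) were tested. No build is named with the values; the coordinates printed are those of RefSeq's promoter windows on GRCm38.p6 and were not used with the values. Protein sequences were not used here.

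Aliskiren minus losartan was fitted with limma 3.58.1 in R 4.3.3 (lmFit, eBayes, two-sided, no covariate, all 10 arrays) with Benjamini-Hochberg adjustment over all genes tested, and the fit was tested on simulated data. Relations across mice used two-sided permutation tests, exact under 10 mice and otherwise with 100000 resamples (scipy 1.17.1), adjusted over 13 relations. Named genes are the members, up to 3 genes of largest spread per pathway list, the 5 genes most like the member of largest SD, Havcr1 and Lcn2. Members, lists and tests were chosen with earlier results of these data known. Arrays have no depth; 5 per group limits precision, and the labels name separate mice but no batch.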

Additional observations from a re-analysis of the deposited data

Results flagged for a closer look

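Among 26 genes, the members and the named genes of the pathway, 52 groups of 5 mice were examined for 1 mouse far from the others, and 6 were found. Chance flags about 5% of unselected, independent groups, but the pathway genes were named for their spread and all genes share the same mice, so that rate is no yardstick here. Among the members, Thbd stood at 7.99 in aliskiren mouse 1, with the nearest aliskiren mouse at 7.27. Plat stood at 8.58 in aliskiren mouse 1, with the nearest at 7.55, and Plaur at 7.18 in losartan mouse 3, with the nearest at 6.29. Among the other genes, F13b was low in losartan mouse 3, at 9.81 against 11.28 in the nearest losartan mouse. Pros1 at 7.44 and Anxa5 at 10.67 were high in aliskiren mouse 1, where the nearest aliskiren mice had 6.82 and 10.05. These 6 groups involve 2 mice, 4 from aliskiren mouse 1 and 2 from losartan mouse 3.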

How the results depend on the processing

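Under 19 alternatives (level filter, probe set choice, scaling, variance model, array weights, mouse number as a replicate block, each mouse left out, losartan mouse 3 and aliskiren mouse 1 left out together) limma's counts of genes higher and lower with aliskiren and of members past the threshold were 0 each, and the lowest adjusted p of a member was 0.737. The lowest unadjusted p was 0.0212, for Plau without losartan mouse 2. The members' differences kept their direction in 174 of 183 recomputed values. Leaving out each mouse in turn, they ran from -0.82 to -0.05 for Fga, -0.97 to -0.06 for Fgb, -0.75 to 0.23 for Fgg, 0.13 to 0.34 for F3, -0.35 to -0.04 for Thbd, 0.03 to 0.20 for Procr, 0.04 to 0.17 for Tfpi, 0.17 to 0.46 for Plau, -0.19 to 0.33 for Plat and -0.22 to 0.070 for Plaur. Without losartan mouse 3 and aliskiren mouse 1 Fgg turned to 0.048 and Plaur to 0.054; with array weights Plaur turned to 0.029, and with the mean of its probe sets Tfpi turned to -0.045. The cause was not tested. Deviations of same-numbered mice from their drug means correlated between -0.23 and 0.42. Of the 5 aliskiren mice 2 correlated best with the losartan mouse of their number. So few values cannot decide whether the number pairs mice, and the labels do not say. With the number as a replicate block the counts were 0 as well. Signal over background was not analysed here. The choice of mice for the relations and the spread without losartan mouse 3 were added after the data were seen.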

Other observations

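The following genes of the fixed lists were singled out after their values were seen. F13a1, the catalytic subunit of factor XIII, which crosslinks fibrin, lay below the level filter on average, with 4.58 to 6.63 in aliskiren mice and 3.99 to 9.15 in losartan mice, and its highest value was in losartan mouse 3. Its partner F13b was lowest in that mouse. Hp, the haptoglobin gene, also below the filter, had 4.81 to 6.24 with aliskiren and 4.35 to 10.37 with losartan, highest again in losartan mouse 3. Proc, the gene of protein C, had 11.53 to 11.73 with aliskiren and 10.71 to 11.60 with losartan and was lowest in the same mouse, and the von Willebrand factor gene Vwf, below the filter, stood there at 6.33, where aliskiren mice had 4.25 to 5.00 and the other 4 losartan mice 4.04 to 5.04. For F13a1 and Hp the next highest were aliskiren mouse 3 (6.63 and 6.24) and aliskiren mouse 2 (6.10 and 5.83). The fat markers Adipoq (12.96, 9.90 and 7.35), Fabp4, Ucp1, Cidec, Cidea and Retn had these mice on top in the same order, while Lep and Lpl did not. In the fibrinogen chains and Havcr1 aliskiren mouse 3 had rank 9. Whether fat tissue has a part in F13a1 and Hp was not tested.

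The profile of Fgg was compared with all tested genes in the same way as that of Fgb, a choice made after the data were seen. Apart from members, the nearest were Cd14 (root-mean-square difference 0.43), a receptor of monocytes for bacterial lipopolysaccharide, Cd68 (0.44), a lysosomal protein of macrophages, Ltbp2 (0.44), Dpysl3 (0.44) and Timp1 (0.44), an inhibitor of matrix metalloproteinases. The members Fgb and Fga lay nearer to Fgg, each at 0.38. Each of the named genes was highest in losartan mouse 3, which weighs most in this measure, and their distances were nearly the same. Cd14 ran from 6.51 to 8.59 in aliskiren mice and from 6.03 to 9.86 in losartan mice.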
